A study of Homo sapiens with 12 samples.

Results

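HMOX1, the inducible heme oxygenase, was examined together with 8 further genes that the transcription factor NRF2 is known to drive, namely NQO1, GCLM, GCLC, TXNRD1, SRXN1, OSGIN1, FTH1 and FTL. These 9 genes were picked by symbol out of 20042 measured genes. HMOX1 was selected on its values, since it was higher in all 3 CNOT knock-downs than in both of their controls, and those comparisons are therefore given without a test. The other 8 genes were included for their known role.

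The arrays came from HEK-293T cells, a human embryonic kidney line grown as an epithelium. Stable cell clones carried a pINDUCER plasmid (pIND) whose miR30-based short hairpin RNA is switched on by doxycycline (Dox) and targets CNOT1, CNOT2 or CNOT3, subunits of the CCR4-NOT complex that shortens and controls mRNAs, or firefly luciferase (Luci), which these cells lack. The groups were pIND CNOT1 +Dox and pIND CNOT3 +Dox with 1 array each, pIND CNOT2 +Dox with 2 arrays, the same lines left without Dox (-Dox) with 1, 1 and 2 arrays, and pIND Luci +Dox and -Dox with 2 arrays each. A first experiment was taken to hold 8 arrays, 1 of each group, and a repeat experiment 4 arrays of the CNOT2 and Luci lines. Each line is a clone with its own hairpin, so clone and hairpin cannot be told apart in a difference between lines at -Dox. For the repeat Luci -Dox array the title and a further label contradict each other about Dox, and it was placed by its title. GEO's design text calls the replicates technical and the study names both kinds, so p-values measure only the spread between these arrays, which may be technical, and in bulk RNA a smaller share of expressing cells and less RNA per cell cannot be told apart.

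Heme oxygenase 1 opens the heme ring and releases biliverdin, carbon monoxide and iron. NRF2, encoded by NFE2L2, is held down by KEAP1, which hands it to the CUL3 ubiquitin ligase. On oxidative or electrophilic stress it escapes, pairs with small MAF proteins and binds antioxidant response elements (AREs), while BACH1 occupies many of the same elements, above all those of HMOX1, until heme removes it. Its targets make glutathione (GCLC and GCLM), renew thioredoxin and peroxiredoxin (TXNRD1 and SRXN1), reduce quinones (NQO1) and store the released iron (FTH1 and FTL).

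The deposited values were taken as log2 intensities, and all 12 arrays share an upper quartile of 6.69 and a median of 3.34. On its own knock-down CNOT1 reached 5.07 in CNOT1 +Dox cells against 7.23 in CNOT1 -Dox cells. CNOT2 reached 8.96 and 8.38 in CNOT2 +Dox cells against 9.86 and 9.72 in CNOT2 -Dox cells, a difference of -1.12. The second CNOT2 spot was dim, at 2.20 to 3.44, and the mean of both spots gave -0.26. CNOT3 reached 6.80 in CNOT3 +Dox cells against 8.96 in CNOT3 -Dox cells. This -Dox level was itself below those of Luci -Dox cells, 9.97 and 10.62, and the source of that difference was not tested. By their mean over the arrays all 7 markers of HEK-293T cells lay above the upper quartile, and none of the measured markers of blood, red cell lineage or endothelium did. Of these 7, the neurofilament genes NEFM and NEFL stood apart in the CNOT1 and CNOT3 lines. With Dox, NEFM reached 9.78 in the CNOT1 line and 8.71 in the CNOT3 line against 14.76 in the first Luci +Dox array. Without Dox these lines had 10.41 and 8.63 against 14.75 in the Luci line. NEFL differed from Luci +Dox cells by -3.79 for CNOT1 and -3.00 for CNOT3, and without Dox by -3.89 and -2.85. LHX1 was also more than 2-fold lower in the CNOT1 line than in Luci cells of the first experiment, with and without Dox. KRT8 went the other way, at 1.12 for CNOT1 +Dox against Luci +Dox cells and at 1.36 for CNOT2 -Dox against Luci -Dox cells of the repeat. The part of these differences between lines in the comparisons with Luci cells was not tested. Of the fibroblast markers COL1A1 lay above it on average, at 6.34 to 7.94 per array, whereas the mean of COL3A1 lay at or below the median spot, as did those of PTPRC, CD163, CD3E, HBB, ALAS2, PECAM1, CDH5 and VWF.

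HMOX1 was higher with Dox in each knock-down line of the first experiment, and the size ordered as CNOT3, CNOT2 and CNOT1. It reached 11.23 in CNOT1 +Dox cells against 10.20 in CNOT1 -Dox cells, a difference of 1.03 or 2.04-fold. In the CNOT2 line the levels were 11.93 with Dox and 10.48 without, a difference of 1.45 or 2.73-fold. In the CNOT3 line they were 11.59 with Dox and 9.52 without, a difference of 2.07 or 4.20-fold. The Luci line of the same experiment had 10.17 with Dox and 9.90 without, a difference of 0.27.

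The array carries 10 spots for HMOX1, and the one with the highest mean over the arrays stands for the gene in these values. All 10 spots were higher with Dox in each of these pairs, by 0.81 to 1.03 in the CNOT1 line, 1.24 to 1.60 in the CNOT2 line, 1.85 to 2.26 in the CNOT3 line and 0.27 to 0.79 in the Luci line. The mean differences over the spots were 0.93, 1.35, 2.14 and 0.56 in the same order. The spots of 1 array had an SD between 0.10 and 0.28.

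In the repeat experiment the order within lines was turned round. HMOX1 had 9.79 in CNOT2 +Dox cells against 10.76 in CNOT2 -Dox cells, a difference of -0.97, and all 10 spots were lower with Dox, by -1.24 to -0.87. The Luci line had 7.81 with Dox and 9.12 without, a difference of -1.31. Again all 10 spots were lower with Dox, by -2.14 to -1.31. HMOX1 was thus lower on both +Dox arrays of the repeat and higher on all 4 +Dox arrays of the first experiment than on the matching -Dox arrays. Averaged over both experiments it had 10.86 ± 1.51 in CNOT2 +Dox cells and 10.62 ± 0.20 in CNOT2 -Dox cells (SD, n = 2 each), a difference of 0.24. The 2 values of the CNOT2 +Dox group enclose both values of the CNOT2 -Dox group. Leaving out 1 array of the CNOT2 line in turn gave between -0.83 and 1.31, with the negative end when the first CNOT2 +Dox array was left out.

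**Figure D1:**
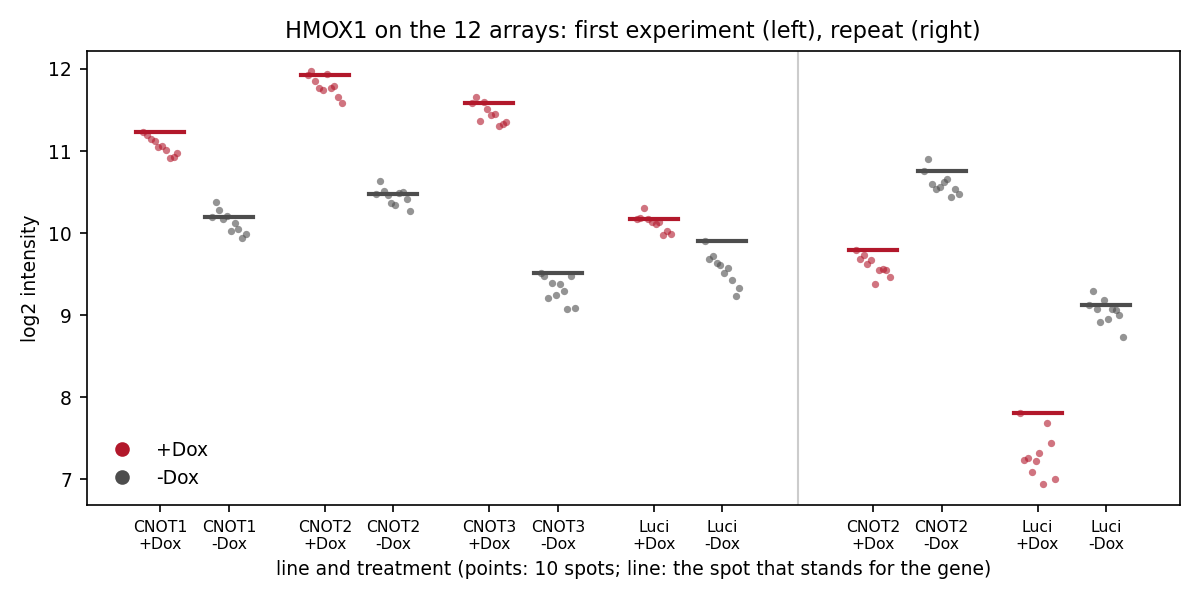
HMOX1 log2 intensity (vertical axis) on each of the 12 arrays, with +Dox in red to the left of its -Dox array in grey, the first experiment on the left and the repeat on the right. Points are the 10 spots and the line marks the spot used for the gene, which is at 11.93, 11.59 and 11.23 on the knock-down arrays of the first experiment and at 7.81 on the Luci +Dox array of the repeat.

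Set against the Luci +Dox array of its experiment, HMOX1 was higher in every knock-down. The difference was 1.06 for CNOT1, 1.76 for CNOT2 and 1.42 for CNOT3 in the first experiment and 1.98 for CNOT2 in the repeat, and all 10 spots were higher each time. In the repeat this rests on a low level in Luci +Dox cells, 7.81, since the CNOT2 +Dox level of 9.79 lay below that of CNOT2 -Dox cells. Over group means the differences were 2.24 for CNOT1, 1.87 for CNOT2 and 2.60 for CNOT3. For CNOT1 and CNOT3 these set 1 array of the first experiment against a mean of 8.99 ± 1.67 (SD, n = 2) from both experiments, whereas within the first experiment they were 1.06 and 1.42. For CNOT2, leaving out each array of the CNOT2 and Luci lines in turn moved the value between 0.69 and 3.05. The low end came without the repeat Luci +Dox array and the high end without the first.

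More than 2-fold higher against both controls in all 3 knock-downs of the first experiment were 14 of 15033 genes kept by the filter on low values, or 0.0931%, and HMOX1 was the only one of the 7 genes kept among them. With any difference above 0 this held for 1342 genes, or 8.93%, and over group means for 1224 genes, or 8.14%. These counts describe the pattern for which HMOX1 was picked. For CNOT1, HMOX1 passed 2-fold on the spot that stands for it, at 1.03 against CNOT1 -Dox and 1.06 against Luci +Dox cells. The means over its 10 spots were 0.93 and 0.94, less than 2-fold.

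Within the first experiment, HMOX1 was highest in CNOT2 +Dox cells at 11.93, followed by CNOT3 +Dox at 11.59, CNOT1 +Dox at 11.23, CNOT2 -Dox at 10.48, CNOT1 -Dox at 10.20, Luci +Dox at 10.17, Luci -Dox at 9.90 and CNOT3 -Dox at 9.52. The gaps between neighbours were 0.03 to 0.75. In the repeat the order was CNOT2 -Dox at 10.76, CNOT2 +Dox at 9.79, Luci -Dox at 9.12 and Luci +Dox at 7.81. With 1 array per group in each experiment, the spread within an experiment was not measured, so no neighbours can be said to differ. The SD between the arrays of a replicated group, 1.16, is larger than every gap of the first experiment, but it also holds the shift between the experiments. That SD lies at the 97.2 percentile of all genes kept, with 425 of 15033 genes above it and a median gene at 0.43. From the first experiment to the repeat HMOX1 moved by -2.14 in CNOT2 +Dox cells, 0.28 in CNOT2 -Dox cells, -2.36 in Luci +Dox cells and -0.78 in Luci -Dox cells.

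The lines also differed without Dox. HMOX1 differed from Luci -Dox cells by 0.30 in the CNOT1 line and -0.38 in the CNOT3 line in the first experiment. The CNOT2 line differed by 0.58 in the first experiment and by 1.64 in the repeat. These values share arrays with the comparisons that chose HMOX1 and are given without a test.

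Glutamate-cysteine ligase makes the first bond of glutathione, with GCLC as its catalytic and GCLM as its modifier subunit. The promoters of GCLM and TXNRD1 carry the core ARE letters TGACNNNGC (either strand) in the window from 250 bases before to 50 bases after the start site, as given by RefSeq for GRCh38.p14. They are shown because only these 2 of the 7 genes with a promoter entry hold the letters, which 13.3% of 35116 promoters of that length hold. The matched letters are in capitals. The GCLM match starts 34 bases before the start site (chr1:93909431-93909489, minus strand), and the TXNRD1 matches start 99 and 102 bases before 2 different start sites (chr12:104215655-104215713 and chr12:104286905-104286963, plus strand).
GCLM: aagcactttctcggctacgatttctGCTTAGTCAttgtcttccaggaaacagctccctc
TXNRD1, first start site: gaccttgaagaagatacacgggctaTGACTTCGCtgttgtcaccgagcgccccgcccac
TXNRD1, second start site: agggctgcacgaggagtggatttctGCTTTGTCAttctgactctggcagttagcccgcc
The first TXNRD1 window holds 1 more match, on the other strand, which ends on the start site. A match is a run of letters and not a measured binding site. For the other 5 genes with an entry the letters are not in this window. HMOX1 and FTH1 had no promoter entry, so their promoters were not searched.

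GCLM ran opposite to HMOX1 over the arrays. It had 8.35 in CNOT1 +Dox cells against 8.57 in CNOT1 -Dox cells, and 8.35 in CNOT3 +Dox cells against 8.95 in CNOT3 -Dox cells. It had 8.34 and 9.42 in CNOT2 +Dox cells against 8.70 and 8.92 in CNOT2 -Dox cells, and 8.79 and 9.73 in Luci +Dox cells against 8.90 and 9.30 in Luci -Dox cells. The 3 lowest levels were thus those of the knock-down arrays of the first experiment, where HMOX1 was highest, and the highest was that of the repeat Luci +Dox array, where HMOX1 was lowest. Over the 12 arrays Pearson's r with HMOX1 was -0.91 and Spearman's rho -0.90, rank 15028 of 15032 genes from the most alike. Over the 8 arrays of the first experiment r was -0.94. This is a description over arrays that share experiments and lines. Against Luci +Dox cells of its own experiment GCLM had differences of -0.45 to -0.31 in the 4 pairs, and in the limma fit, which sets the single CNOT1 and CNOT3 arrays against Luci arrays of both experiments, the differences were -0.91 ± 0.58 (SE) for CNOT1 (adjusted p = 0.596), -0.38 ± 0.47 for CNOT2 (adjusted p = 1) and -0.91 ± 0.58 for CNOT3 (adjusted p = 0.625).

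**Figure D2:**
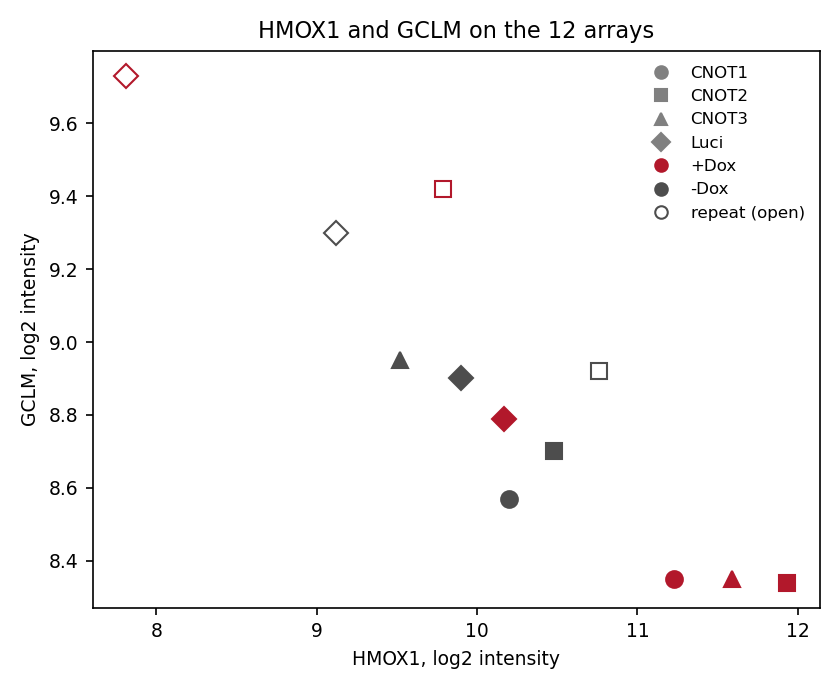
GCLM log2 intensity (vertical axis) against HMOX1 log2 intensity (horizontal axis), 1 point per array, with the shape giving the line, red +Dox, grey -Dox and open symbols the repeat experiment. The points run from 7.81 for HMOX1 with 9.73 for GCLM on the repeat Luci +Dox array to 11.93 with 8.34 on the first CNOT2 +Dox array.

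GCLC had 9.11 in CNOT1 +Dox cells against 8.75 in CNOT1 -Dox cells, and 7.51 in CNOT3 +Dox cells against 7.82 in CNOT3 -Dox cells. It had 8.02 and 8.64 in CNOT2 +Dox cells against 8.05 and 8.39 in CNOT2 -Dox cells, and 7.49 and 8.41 in Luci +Dox cells against 7.84 and 8.37 in Luci -Dox cells. Both CNOT1 arrays thus lay above all others, with and without Dox. Against Luci +Dox cells the CNOT1 difference was 1.62 within the first experiment and 1.16 ± 0.52 (SE) in limma (adjusted p = 0.449), and without Dox it was 0.91 within the first experiment and 0.65 ± 0.52 in limma (adjusted p = 0.683). Its r with HMOX1 was -0.12 and with its partner GCLM 0.15.

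TXNRD1, the cytosolic thioredoxin reductase, was lower with Dox in each knock-down pair and higher with Dox in both Luci pairs. It had 5.89 in CNOT1 +Dox cells against 6.39 in CNOT1 -Dox cells, and 5.38 in CNOT3 +Dox cells against 5.73 in CNOT3 -Dox cells. In the CNOT2 line it had 4.93 and 5.15 with Dox against 5.33 and 5.82 without, and in the Luci line 6.0 and 5.94 with Dox against 5.39 and 5.82 without. The groups of the CNOT2 line did not overlap, nor did those of the Luci line. Of all genes, 14.3% had both CNOT2 +Dox arrays below both CNOT2 -Dox arrays and 15.5% had them above, and in the Luci line 11.2% had both +Dox arrays below and 11.6% above. In limma the Dox effect was -0.54 ± 0.30 (SE) in the CNOT2 line and 0.36 ± 0.30 in the Luci line, and the difference of the 2 effects was -0.90 ± 0.43 (adjusted p = 1). CNOT2 +Dox against Luci +Dox cells gave -0.93 ± 0.30 (limma adjusted p = 0.835). This was the only one of the 14 comparisons in which any of the 6 genes tested beside HMOX1 had an unadjusted p under 0.05.

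SRXN1, the sulfiredoxin that reactivates peroxiredoxins, had 9.76 in CNOT1 +Dox cells against 9.67 in CNOT1 -Dox cells, and 8.98 in CNOT3 +Dox cells against 9.11 in CNOT3 -Dox cells. It had 9.48 and 9.58 in CNOT2 +Dox cells against 9.35 and 9.11 in CNOT2 -Dox cells. In the Luci line it had 9.67 and 9.41 with Dox against 9.23 and 8.88 without, a difference of 0.48 ± 0.28 (SE, limma adjusted p = 1). Neither of these 2 lines had overlapping groups. Of all genes, 15.5% had both CNOT2 +Dox arrays above both -Dox arrays, and 11.6% had this in the Luci line. The difference of the 2 Dox effects was -0.18 ± 0.39 (adjusted p = 1).

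NQO1 and OSGIN1 lay below the filter, at means of 2.61 and 2.51 against a limit of 2.96, and were not tested. NQO1, the quinone reductase used most often to read out NRF2, had 3.23 in CNOT1 +Dox cells against 2.92 in CNOT1 -Dox cells and 3.70 in CNOT3 +Dox cells against 2.57 in CNOT3 -Dox cells. In the CNOT2 line it had 2.75 and 2.54 with Dox against 2.40 and 2.49 without, and in the Luci line 2.38 and 2.30 with Dox against 1.80 and 2.26 without. It was above both controls in all 4 knock-down pairs, by 0.05 to 1.13 against its own line and 0.24 to 1.32 against Luci +Dox cells, but it was also higher than Luci -Dox cells in the same lines without Dox, by 0.23 to 1.12. All levels but that of CNOT3 +Dox cells were under the median spot, where log2 differences are those of dim spots. OSGIN1, an inhibitor of cell growth, had levels between 1.94 and 3.49 with its highest value in CNOT2 -Dox cells of the repeat, and its Dox differences in the knock-down lines were 0.15, -0.02, -0.56 and 0.16 for CNOT1, first CNOT2, repeat CNOT2 and CNOT3.

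The ferritin chains were bright. On the spot that stands for it FTH1, the heavy chain with the ferroxidase site, was between 13.56 and 13.85 on all 12 arrays, with the lowest values on both CNOT3 arrays, 13.57 with Dox and 13.56 without. Its other spots varied more. The next brightest was between 13.36 and 14.16, and in the repeat it had 13.66 in CNOT2 +Dox cells against 14.16 in CNOT2 -Dox cells and 13.54 in Luci +Dox cells against 14.00 in Luci -Dox cells. FTL, the light chain, was between 10.52 and 11.13. It had 10.52 and 10.56 in CNOT2 +Dox cells against 10.73 and 11.13 in CNOT2 -Dox cells, groups that did not overlap, with a limma difference of -0.39 ± 0.27 (SE, adjusted p = 1). In the Luci line it had 10.80 and 10.69 with Dox against 10.85 and 11.03 without, which did not overlap either. Of all genes, 14.3% had both CNOT2 +Dox arrays below both -Dox arrays, and 11.2% had this in the Luci line. The FTL Dox effect in the CNOT2 line differed from that in the Luci line by -0.20 ± 0.38 (adjusted p = 1). The 4 FTH1 and 3 FTL spots differed in brightness, with SDs of 0.52 and 0.93 within an array, and ferritin has many processed copies in the genome that a probe may also bind.

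**Figure D3:**
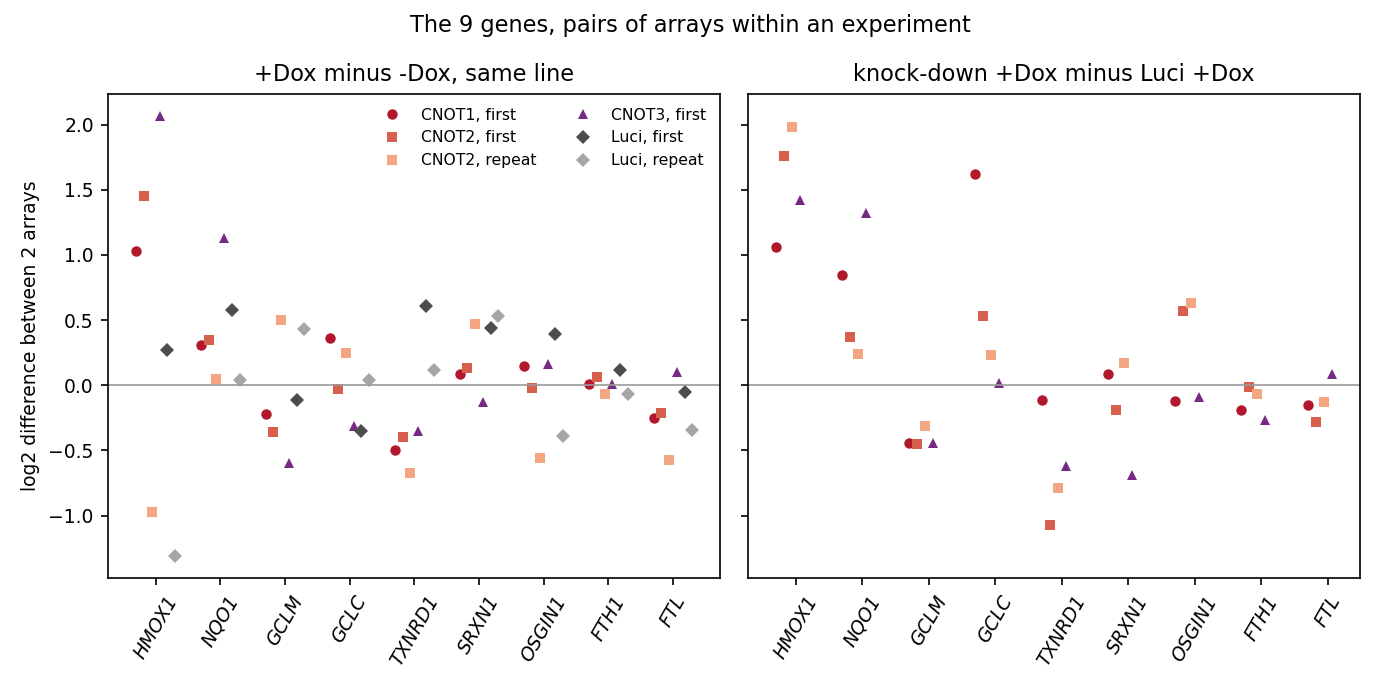
Log2 difference between 2 arrays of the same experiment (vertical axis) for each of the 9 genes, +Dox minus -Dox of the same line on the left and knock-down +Dox minus Luci +Dox on the right. HMOX1 is above 0 in all 4 knock-down pairs against Luci +Dox but at -0.97 for the repeat CNOT2 pair within the line, and TXNRD1 is below 0 in all knock-down pairs on both sides.

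None of the 6 genes tested beside HMOX1 passed an adjusted p of 0.05 in any of the 14 comparisons of the limma fit, a model with 8 group means and Benjamini-Hochberg adjustment over 15033 genes. This model has no term for experiment, so a shift between the experiments counts as spread in its SEs and p-values. GCLM, for example, rose by 0.22 to 1.08 from the first experiment to the repeat. CNOT1 +Dox against Luci +Dox cells called 35 genes, or 0.233%, and CNOT3 +Dox against Luci +Dox cells 41 genes, or 0.273%. CNOT1 -Dox against Luci -Dox cells called 54 genes, or 0.359%, and CNOT3 -Dox against Luci -Dox cells 28 genes, or 0.186%. The other 10 comparisons, which include the 4 Dox effects and CNOT2 +Dox against Luci +Dox cells, called 0.0% of genes in limma, with 363 to 809 genes at an unadjusted p under 0.05. The 4 counts above 0 depended on the fit. With the replicate number as a block they were 178, 106, 118 and 69, in the order given, and with 1 replicate left out they were 0 to 13, 5 to 27, 1 to 20 and 2 to 16, the lowest depending on which array was left out.

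As a group the 7 genes kept by the filter had a median Dox difference of 0.01 in the CNOT1 pair, -0.03 and -0.07 in the first and repeat CNOT2 pairs and -0.13 in the CNOT3 pair, beside 0.12 and 0.04 in the Luci pairs, while the medians of all genes were 0.00 to 0.02. With HMOX1 left out the medians were -0.10, -0.12, 0.09 and -0.22 in the knock-down pairs, in the same order, and 0.03 and 0.08 in the Luci pairs. HMOX1 was the only one more than 2-fold higher with Dox on the spot that stands for each gene. As it was picked for being higher in the knock-downs, this restates its selection. HMOX1 was more than 2-fold higher in the CNOT1 pair (where 4.99% of all genes were), the first CNOT2 pair (4.43%) and the CNOT3 pair (5.79%). None was in the repeat CNOT2 pair (9.0%) or in the Luci pairs (3.34% and 8.83%). More than 2-fold lower with Dox was HMOX1 in the repeat Luci pair, where 5.26% of all genes were. None was in the first Luci pair (4.4%), the CNOT1 pair (3.55%), the CNOT2 pairs (3.39% and 5.73%) or the CNOT3 pair (4.26%).

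Within each experiment, set against Luci +Dox cells, the medians of the 7 genes were -0.11 for CNOT1, -0.19 and -0.07 for the first and repeat CNOT2 pairs and -0.27 for CNOT3, beside 0.03, 0.00, -0.01 and 0.03 for all genes. With HMOX1 left out these became -0.13, -0.24, -0.10 and -0.35. HMOX1 was picked for these comparisons too. On the spots that stand for the genes, HMOX1 and GCLC exceeded Luci +Dox cells more than 2-fold for CNOT1. There 11.4% of all genes did and 10.1% were as much lower. HMOX1 alone did in the first CNOT2 pair (6.74% higher and 4.12% lower among all genes), in the repeat (6.3% and 5.13%) and for CNOT3 (10.3% and 9.3%). TXNRD1 in the first CNOT2 pair, at -1.07, was the only one of the 7 more than 2-fold lower.

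The regulators of NRF2 were read from a list of 12 genes, all of them kept. NFE2L2, which encodes NRF2, had 3.24 in CNOT1 +Dox cells against 3.30 in CNOT1 -Dox cells, and 3.20 in CNOT3 +Dox cells against 2.77 in CNOT3 -Dox cells. In the CNOT2 line it had 2.67 and 3.38 with Dox against 2.64 and 3.05 without. In the Luci line it had 2.38 and 2.33 with Dox against 3.45 and 3.65 without, a difference of -1.20 (limma adjusted p = 1). Both Luci +Dox values are below the lower quartile of all spots, 2.54, so this difference is one of dim spots.

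KEAP1, the repressor of NRF2, was higher with Dox by 0.24 in the CNOT1 line, 0.47 and 0.19 in the CNOT2 line and 0.29 in the CNOT3 line, against -0.05 and 0.12 in the Luci line, and the difference of the mean Dox effects was 0.25 (limma adjusted p = 1). BACH1, the repressor of HMOX1, differed with Dox by 0.00, -0.06, -0.28 and -0.26 in the CNOT1, first CNOT2, repeat CNOT2 and CNOT3 pairs and by -0.09 and -0.40 in the Luci pairs. HMOX2, the constitutive heme oxygenase, differed by 0.03, 0.15, 0.54 and 0.31 in the same knock-down pairs and by 0.28 and 0.28 in the Luci pairs. These 4 genes were named for their roles after their values were seen, and some other regulators differed more. In the first experiment MAFK had 4.41 in CNOT1 +Dox cells against 6.87 in Luci +Dox cells, and 5.33 against 6.15 without Dox. KEAP1 differed between these lines by 1.1 with Dox and by 0.81 without. In the repeat MAFG had 7.43 in CNOT2 +Dox cells against 8.94 in CNOT2 -Dox cells, and 7.5 against 8.78 in the Luci line. Past 2-fold in the repeat, 1 of the 12 regulators was lower with Dox in the CNOT2 line and 3 in the Luci line. None was more than 2-fold higher there.

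Over 8 further lists with 90 genes, of which 79 were kept, no gene was called in any comparison. In the first experiment 2 of the 79 were more than 2-fold higher with Dox in each knock-down line, or 2.53%, below the shares of all genes just given. They were CHAC1 (by 1.46) and ABCC2 (by 1.25) in the CNOT1 line, TXNRD2 and SOD3 in the CNOT2 line and GGT1 (by 1.77) and MAFF (by 1.05) in the CNOT3 line. TXNIP was the only one more than 2-fold lower in these 3 pairs, by -1.18 in the CNOT2 line, and it differed by -1.23 in the first Luci pair. In the repeat 9 genes were more than 2-fold higher with Dox in the CNOT2 line, or 11.4% beside 9.0% of all genes, and 8 in the Luci line, or 10.1% beside 8.83%.

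Within each experiment, a level more than 2-fold above that of Luci +Dox cells was found for 4 of the 79 genes (5.06%) in the CNOT1, the first CNOT2 and the CNOT3 pair, beside 11.4%, 6.74% and 10.3% of all genes, and for 1 gene in the repeat CNOT2 pair (1.27% beside 6.3%). FLVCR1, the heme exporter, was in each of the 3 sets of the first experiment, at 1.79 for CNOT1, 1.35 for CNOT2 and 1.84 for CNOT3, and differed by 0.63 in the repeat CNOT2 pair. The same lines differed from Luci -Dox cells without Dox by 1.74, 0.55 and 0.68, and by -0.02 in the repeat. FLVCR1 was singled out after its values were seen. For CNOT1 8 of the 79 genes were more than 2-fold lower than in Luci +Dox cells, or 10.1% beside 10.1% of all genes, and 6 of them were metallothioneins.

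Metallothioneins, small proteins that bind metals and respond to oxidants, differed with Dox mainly in the repeat. There the 9 kept genes had a median difference of 1.70 in the CNOT2 line, between -0.05 and 3.08, and of 1.17 in the Luci line, between 0.23 and 1.99. More than 2-fold higher were 8 of the 9 in the CNOT2 line and 6 of the 9 in the Luci line. In the first experiment the medians were -0.08 in the CNOT1 line, -0.24 in the CNOT2 line, 0.52 in the CNOT3 line and -0.08 in the Luci line. Against the Luci +Dox array of its experiment the medians were -1.26 for CNOT1, -0.15 and -0.01 for the CNOT2 pairs and -0.19 for CNOT3. Without Dox the medians against Luci -Dox cells were -1.17 for CNOT1, 0.10 and -0.37 for the CNOT2 pairs and -0.89 for CNOT3. Their sequences are close, so probes may not tell the copies apart. The medians of the other 7 lists were between -0.31 and 0.48 over the 6 Dox pairs.

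**Figure D4:**
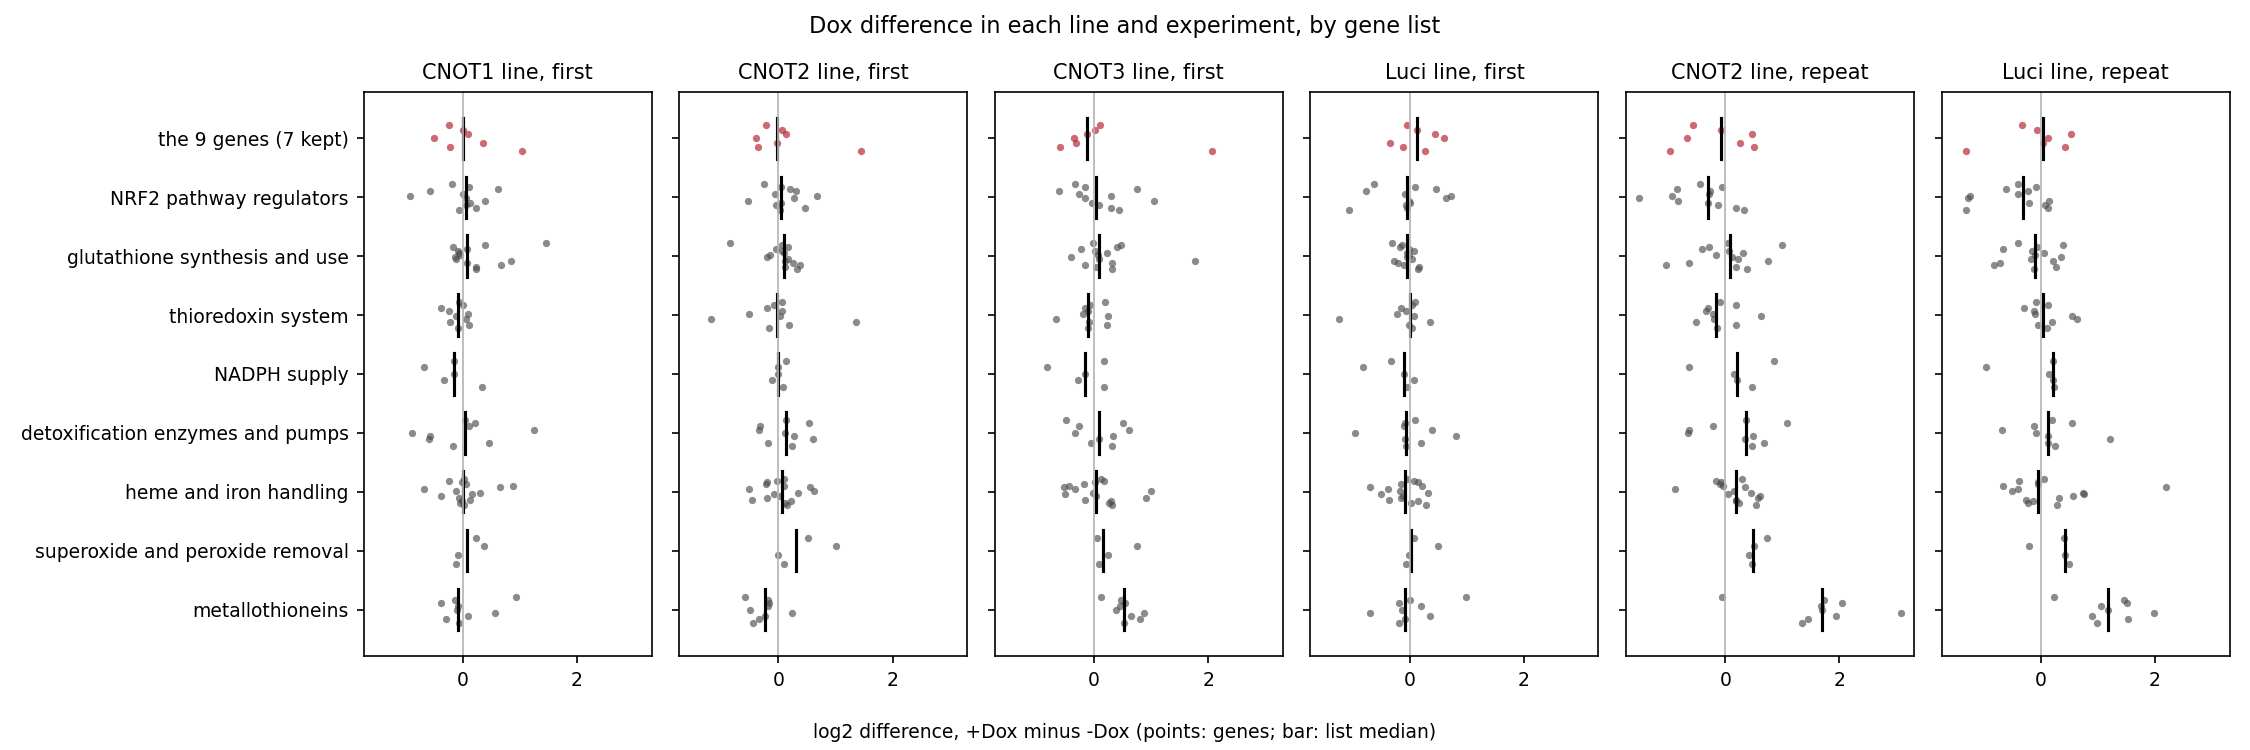
Log2 difference between 2 arrays of the same experiment, +Dox minus -Dox (horizontal axis), for each gene (points) of the 9 genes and of 8 further lists, with bars at the list medians and a panel for each pair, first experiment on the left and repeat on the right. HMOX1 is the point at 2.07 for CNOT3 and 1.03 for CNOT1, and the metallothionein medians are at 1.70 for CNOT2 and 1.17 for Luci in the repeat but at -0.24 and -0.08 in the first experiment.

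The genes most like HMOX1 over the 12 arrays were LIN7A (Pearson's r = 0.96), GADD45GIP1 (0.93), VPS25, NAA38 and GMFG (0.89 each), a description from a search over 15032 genes on arrays that share experiments and lines. Over the 8 arrays of the first experiment LIN7A had r = 0.93. Like HMOX1, LIN7A had its 3 highest levels on the knock-down arrays of the first experiment, 8.31 for CNOT1, 8.52 for CNOT2 and 8.46 for CNOT3, and its lowest, 6.37, on the repeat Luci +Dox array. By Spearman's rho 2 of the 5 genes remained among the 5 most alike. Among the tested genes of the group, SRXN1 came closest to HMOX1 with r = 0.13 and rank 5811 of 15032.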

How the data were processed

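Processed values of 12 one-colour Agilent arrays, 1 per spot, were used as deposited. They are log2 intensities made by the authors with limma from log mean spot signals, with NormExp background correction on negative controls and quantile normalization. The base of the logarithm was inferred from the range. This fixes each array's distribution, so a shift of all genes cannot be seen. A gene symbol was given for 37051 of 62976 spots. The spot with the highest mean stood for a gene, and genes under the 25th percentile (2.96) were left out, which kept 15033 of 20042 genes. One model with 8 group means and 4 residual degrees of freedom was fitted over all 12 arrays (limma 3.58.1, R 4.3.3), with Benjamini-Hochberg adjustment at 0.05. Single CNOT1 and CNOT3 arrays were assumed to vary like the other groups. The fit was tested on simulated data for CNOT2 +Dox against CNOT2 -Dox cells. It called 1 of 50 genes with a log2 change of 1 and 18 of 50 with a change of 2. At changes of 3 and 4 it called 43 and 47 of 50, beside 7 unchanged genes, so in that setting smaller changes would mostly be missed. The simulated arrays had independent noise and no shift shared within an experiment, which the data do hold, so these rates need not apply to the data. The number of arrays limits the precision.

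The arrays numbered 1 and the single arrays were assigned to the first experiment, and those numbered 2 to the repeat, since a legend of the study tells a previous from a new experiment. Deviations from the group means correlated between 0.36 and 0.61 over the 6 pairs of replicated groups, so the replicate number was also run as a block. Named genes are the 9 genes, the targeted subunits and the 5 genes most like HMOX1. From the 8 lists, genes more than 2-fold different against both controls in at least 2 lines, or called, were to be named, but none met this rule. The list genes in the text were instead named after their values were seen, for their role or for passing 2-fold in single pairs. The members and lists were chosen with earlier results of these data known. Medians of lists and counts past 2-fold were taken within each experiment, a choice made after seeing the data. Alternatives were the mean of all spots, no filter or one at the median, the block, an intensity trend, repeated normalization, the 8 CNOT2 and Luci arrays alone, the second Luci -Dox array as +Dox, and leaving out each replicate. Promoter sequences are those of RefSeq (GRCh38.p14).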

Additional observations from a re-analysis of the deposited data

Results flagged for a closer look

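The Dox effect on TXNRD1 ran in opposite directions in the 2 kinds of line. It was -0.54 over the 2 CNOT2 pairs and 0.37 over the 2 Luci pairs, a difference of -0.90 on the log2 scale, and it was -0.48 over all 4 knock-down pairs, a difference of -0.85 from Luci. In the limma interaction the CNOT2 difference had an adjusted p of 1, so it did not pass the threshold.

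The Dox effect on NFE2L2 was 0.18 over the 2 CNOT2 pairs and -1.20 over the 2 Luci pairs, a difference of 1.38, with every CNOT2 pair above 0 and every Luci pair below. The limma interaction had an adjusted p of 1, and the levels, between 2.33 and 3.65 on these arrays, are dim. Both Luci +Dox values lie below the lower quartile of all spots, 2.54, and the first CNOT2 pair differed by 0.03, so the opposite signs rest on small differences between dim spots in the CNOT2 line.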

How the results depend on the processing

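None of the 6 tested genes beside HMOX1 was called under any of the 16 alternatives, 8 of which left out a replicate, but as 10 of the 14 comparisons called no gene at all, this says nothing about their stability. Of 1491 alternative values of single genes 1413 moved by less than the gene's own spread between replicates. This is a wide limit for HMOX1, 1.16, so its CNOT2 Dox difference of 0.24 counted as unmoved at -0.83. Some values could not move, such as the HMOX1 Dox difference of the CNOT1 line, 1.03 whichever replicate was left out. The count therefore says little about stability. With the replicate number as a block the genes called became 178 for CNOT1 and 106 for CNOT3 against Luci +Dox cells (35 and 41 without it), and 118 and 69 for the same lines against Luci -Dox cells without Dox (54 and 28), but no call of the 6 genes changed. A filter at the median gave 26 for CNOT3 against Luci +Dox cells, and counting the second Luci -Dox array as +Dox gave 22 and 12 without Dox. The median of the 7 genes for CNOT1 against Luci +Dox cells was 0.18 with the mean of all spots (-0.08 otherwise). Without Dox the CNOT1 median of 0.61 became 0.29 with the filter at the median, 0.07 with the block, in which the single arrays are compared within their experiment, and 0.30 with the second Luci -Dox array as +Dox. The cause was not tested.

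Leaving out each replicate in turn gave 0 to 13 genes called for CNOT1 and 5 to 27 for CNOT3 against Luci +Dox cells, and 1 to 20 and 2 to 16 without Dox, with fewer samples in each fit. The HMOX1 difference between CNOT2 +Dox and Luci +Dox cells lay between 0.69 and 3.05. Over group means the median of the 7 genes for CNOT3 against Luci +Dox cells lay between -0.44 and -0.27. Their other medians lay between -0.20 and 0.18 for Dox in the CNOT2 line, -0.04 and 0.30 in the Luci line, -0.48 and 0.05 for the CNOT3 Dox effect minus that of Luci, and 0.30 and 0.61 for the CNOT1 line without Dox. NQO1 and OSGIN1, dim on nearly all arrays, were not tested, and dim spots limit their values.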
